A study of Mus musculus with 6 samples.

Results

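The genes described here encode the heat shock proteins and their DnaJ partners, the main protein-folding machinery of the cell. They were taken by symbol: every gene whose symbol begins with Dnaj, Hspa, Hspb, Hspd, Hspe, Hsph or Hsp90, which gave 74 of the 25896 gene symbols in the files, with 286 annotated transcripts. The choice by symbol uses no measured value; the representative of each gene is its most counted transcript on average over the 6 libraries. The members divide into 4 Dnaja, 13 Dnajb and 28 Dnajc genes, 3 Hsp90 genes, 14 Hspa and Hsph genes, 7 small heat shock protein genes (Hspb), the chaperonin genes Hspd1 and Hspe1, and 3 genes that share the Hspb prefix but encode other proteins (Hspb11, Hspbp1 and Hspbap1).

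HSP70 proteins bind short hydrophobic stretches of unfolded proteins and release them in a cycle driven by ATP. DnaJ proteins (also called HSP40) bring substrates to HSP70 and stimulate its ATPase through their J domain, and nucleotide exchange factors such as HSPH1 reset the cycle. HSP90 completes the folding of kinases and steroid receptors, small heat shock proteins hold unfolded proteins without using ATP, and HSPD1 and HSPE1 form the folding chamber of mitochondria. Under stress, heat shock factor 1 binds heat shock elements, inverted repeats of GAA, in the promoters of many of these genes, and neurons keep high levels of the constitutive forms HSPA8 and HSP90AB1.

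Hippocampal mRNA was sequenced from male C57BL/6 mice aged 3 months. All carried floxed Dicer1 (Dicer1 flox/flox) and all received tamoxifen 3 weeks before they were killed, the controls included. The Dicer1-ifKO group also carried CaMKIIa-creERT2, a tamoxifen-activated Cre recombinase under a promoter of forebrain excitatory neurons, and the group called WT carried no Cre. DICER1 cuts microRNA precursors to their mature form, so the comparison asks which mRNAs differ after Dicer1 is deleted in these adult neurons; loss of Dicer1 and the presence of active Cre cannot be told apart in it. Each group had 3 libraries, each pooled from 3 mice. The whole hippocampus was used, so glia, vessels and neurons without Cre contribute RNA as well, and fewer cells of a type cannot be told apart from less RNA per cell.

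Library totals ran from 11832794 counts in WT replicate 1 to 20677845 in Dicer1-ifKO replicate 3. Dicer1 mRNA stood at 55.6 to 62.0 CPM (counts scaled to a common library size) in WT and 58.0 to 63.0 in Dicer1-ifKO. That is 0.04 as log2 fold change (SE 0.06, edgeR adjusted p 0.849). The counts cover the whole Dicer1 transcript and cannot show the loss of the floxed part. Of 17405 genes tested, 28 (0.161%) were below an adjusted p of 0.05, the threshold used throughout: 22 higher (0.126%) and 6 lower (0.0345%) in Dicer1-ifKO. The test was the quasi-likelihood one of edgeR, with p-values adjusted over all genes by Benjamini-Hochberg. Markers of the expected hippocampal cell types were all detected. Summed marker levels did not overlap between the groups for 4 of 10 lists. The dentate granule cell sum was 313.5 to 329.3 CPM in WT and 286.9 to 313.2 in Dicer1-ifKO, and without Calb1, the calcium-binding protein calbindin, it overlapped (181.0 to 202.3 and 184.9 to 203.4). Calb1 fell by 0.27 on the log2 scale (adjusted p 0.0323 in edgeR), while another of the 6 markers, Plk5, was higher in every Dicer1-ifKO library. The astrocyte sum was 3375 to 3553 and 3583 to 3736 CPM, and without the glutamate transporter gene Slc1a2 it overlapped (1523 to 1576 and 1503 to 1533); 4 of the 8 astrocyte markers had negative log2 fold changes. The microglial sum was 425.5 to 439.4 and 419.0 to 422.3 CPM, and the endothelial sum 119.4 to 130.4 and 130.9 to 134.4. Of the 8 microglial markers 3 had positive log2 fold changes. In every Dicer1-ifKO library 2 of the 8 were lower and 1 was higher. Of the 6 endothelial markers 5 were positive. Leaving out Calb1 or Slc1a2 was chosen after seeing the data. The part of these marker differences in the chaperone values was not tested.

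Heat shock elements, the sites of heat shock factor 1 named above, were looked for in the promoters. The search used RefSeq promoter windows (GRCm38.p6, 250 bases before to 50 bases after each annotated start), which covered 60 of the 74 members. A strict element of 3 units was spelled GAANNTTCNNGAA or TTCNNGAANNTTC, and a shorter one of 2 units GAANNTTC or TTCNNGAA; each spelling was read on both strands, and the longer element contains the shorter. The strict element was present in 0.6% of all 32851 windows and 0.66% of the genes that have one, and in 4 of the 60 members (6.7%), Dnajb6, Hspd1, Hspe1 and Hsph1. They are shown 5′ to 3′ on the strand of the gene, with the element in capitals, from the windows chr5:29735648-29735947 (Dnajb6, plus strand), chr1:55087883-55088182 (Hspd1, minus strand), chr1:55087898-55088197 (Hspe1, plus strand) and chr5:149636266-149636565 (Hsph1, minus strand).
Dnajb6: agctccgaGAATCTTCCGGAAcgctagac
Hspd1: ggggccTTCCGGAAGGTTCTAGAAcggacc
Hspe1: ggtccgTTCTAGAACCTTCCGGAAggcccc
Hsph1: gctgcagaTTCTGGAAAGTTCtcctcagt
Hspd1 and Hspe1 lie head to head, and their lines are the same bases read from opposite strands. In the windows shown, the element began 46 bases before the RefSeq start of Dnajb6, 144 before that of Hspd1 and 89 before that of Hspe1. For Hsph1 it began 15 bases after the RefSeq start. These starts differ from those of the counted transcripts. The counted Dnajb6 transcript began at chr5:29735688, ahead of the RefSeq start, and the Dnajb6 element lies within its span.

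The shorter element was present in 15.06% of all windows and 16.97% of the genes that have one, and in 16 of the 60 members (26.7%). Among them were Dnaja1, a cytosolic DnaJ gene (chr4:40722218-40722517, plus strand), Dnajc27, one of the members that stood higher in Dicer1-ifKO (chr12:4082324-4082623, plus strand), and the stress-inducible Hspa1a and Hspa1b (chr17:34972107-34972406 and chr17:34959189-34959488, minus strand). The latter pair is identical over the stretch shown.
Dnaja1: agcctctaGAAAATTCtacgaggc
Dnajc27: ccatcggtGAAGATTCcaggaaaa
Hspa1a and Hspa1b: aactgctgGAAGATTCctggcccc
A match is a description of the letters and not evidence of binding.

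Most chaperone mRNAs differed little between the genotypes, and none of the members passed the test across all genes. Of the 74 members 66 had enough counts to be tested, and by edgeR 0 of these were below an adjusted p of 0.05. Among all tested genes 0.161% were, 0.126% as higher and 0.0345% as lower. DESeq2 called 1 member, Hsp90aa1 (adjusted p 0.0236), and edgeR without a filter on low counts called the same gene (adjusted p 0.0327). At an unadjusted p below 0.05, which 4.8% of all tested genes reached as lower and 5.63% as higher, 9 members were lower and 2 were higher in Dicer1-ifKO.

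The small differences lay mostly on the lower side. Log2 fold changes were negative in 44 of the 66 (66.7%, against 51.0% of all tested genes), and their median was -0.052 against -0.003 over all genes. Not every library shared this shift. The median deviation of the members from their mean log2 level was 0.028, 0.025 and 0.001 in WT replicates 1, 2 and 3. In Dicer1-ifKO it was -0.024, -0.048 and 0.002, so the groups overlapped in this measure. In 10 members (15.2%) every Dicer1-ifKO library was below every WT library, where this was so for 8.08% of all tested genes: Hsp90aa1, Hspa8, Hsph1, Dnaja1, Dnaja2, Dnajb6, Dnajc8, Dnajc28 and the mitochondrial Hspd1 and Hspa9. The reverse held for 2 members (3.03%), Dnajc27 and Hspb7, against 7.99% of all tested genes. The log2 fold changes of the 10 lower members ran from -0.23 to -0.08. Those of Dnajc27 and Hspb7 were 0.19 and 0.51.

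**Figure D1:**
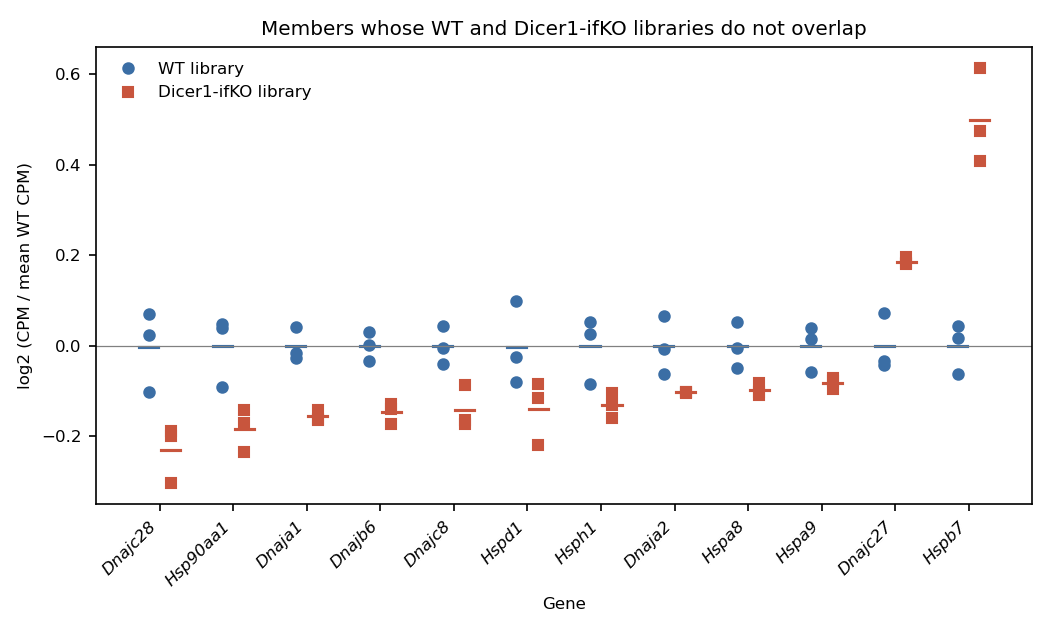
Log2 CPM of the members in each of the 6 libraries, relative to the mean of the WT libraries. The genes shown are the members whose WT and Dicer1-ifKO values did not overlap. Hsp90aa1, Hspa8, Dnaja1 and 7 others are lower in all 3 Dicer1-ifKO libraries, and Hspb7 and Dnajc27 are higher.

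When all genes were split by mean level into 3 classes of equal size, in the top class 9 of 34 members (26.5%) were lower in every Dicer1-ifKO library, against 10.2% of all genes in that class. In the middle class 1 of 20 (5.0%) was, against 8.03%, and in the bottom class 0 of 12, against 6.0%. The median log2 fold change of the members did not follow this order, at -0.025 in the top, -0.06 in the middle and -0.054 in the bottom class. This division by level was chosen after the values were seen. Leaving out 1 library at a time, also chosen after seeing the data, gave 12 to 20 members lower in every remaining Dicer1-ifKO library (18.2% to 30.3%, all genes 12.2% to 15.7%), with the most, 20, without WT replicate 2. It gave 3 to 7 members higher (4.55% to 10.6%, all genes 11.7% to 14.6%), with the most without Dicer1-ifKO replicate 2. The median of the members was -0.032 without Dicer1-ifKO replicate 1 and stayed between -0.062 and -0.035 without any other library.

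**Figure D2:**
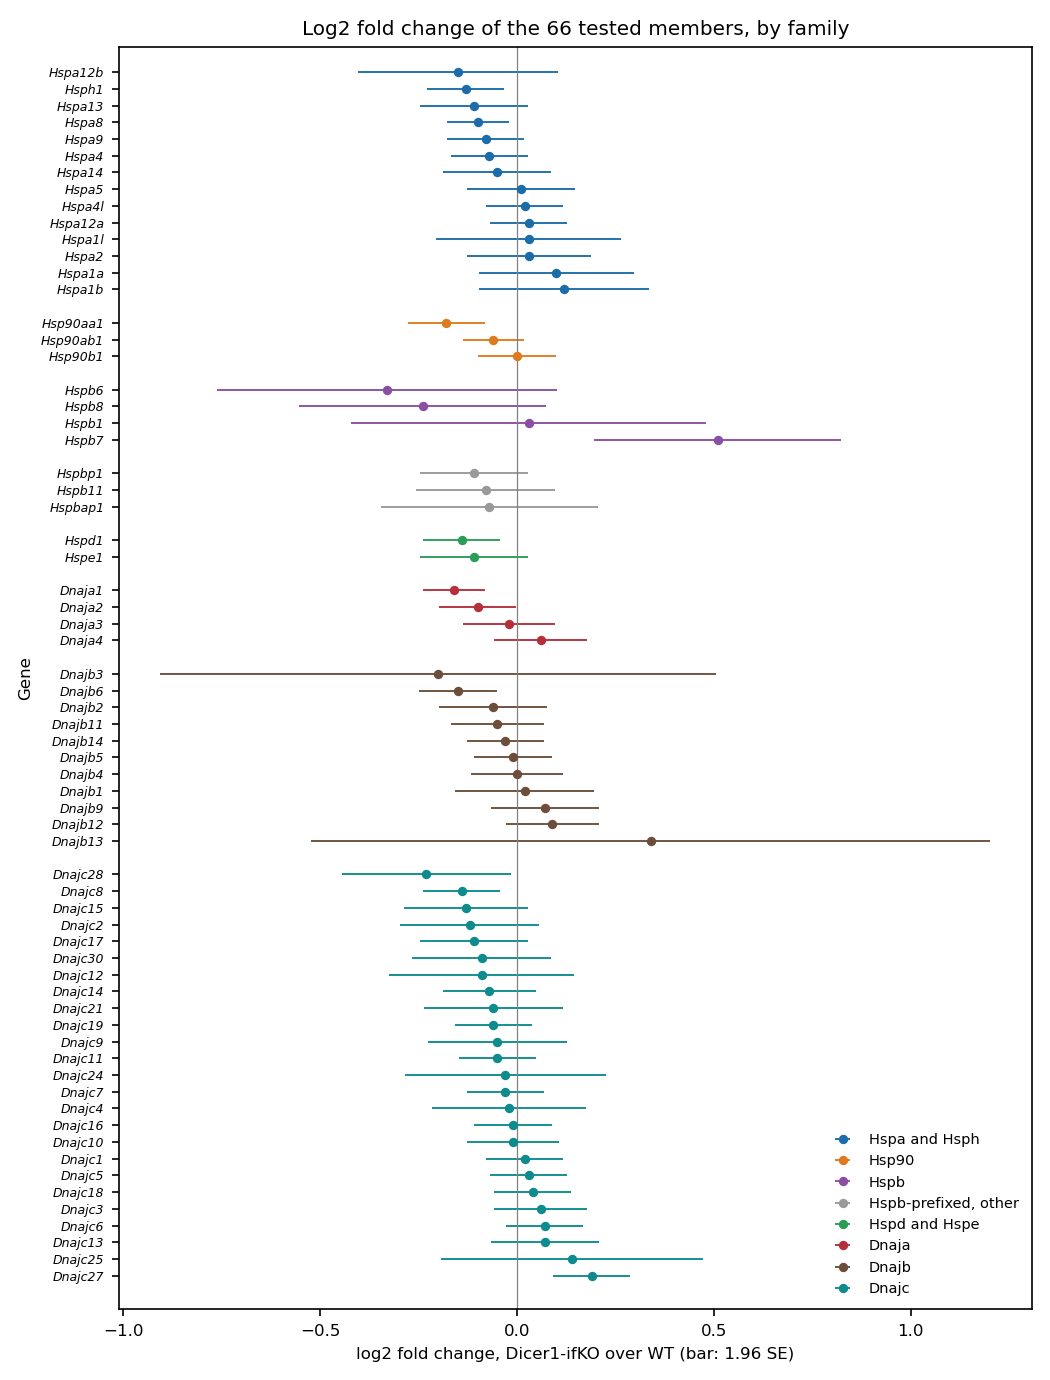
Log2 fold change (Dicer1-ifKO against WT) of each tested member by family, with the family median. Family medians, which are not drawn, lie between -0.123 for Hspd and Hspe and -0.014 for Dnajb, and the highest single value is Hspb7 at 0.51.

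HSP90 genes were among the most abundant mRNAs of the set, and only the alpha form of the cytosolic pair stood apart between the genotypes. Hsp90aa1, the stress-inducible cytosolic HSP90 (chr12:110690605-110696395, GRCm38, minus strand), was at 959, 954 and 872 CPM in WT replicates 1, 2 and 3 and at 841, 825 and 789 CPM in Dicer1-ifKO. The lowest WT library lay just above the highest Dicer1-ifKO library. On the log2 scale it differed by -0.18 (SE 0.05, 95% interval -0.28 to -0.09; edgeR unadjusted p 0.00103, adjusted p 0.153). The adjusted p ran from 0.0236 to 0.439 over the alternative analyses and was highest without Dicer1-ifKO replicate 1.

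Hsp90ab1, the constitutive cytosolic form, was at 1265, 1259 and 1227 CPM in WT and at 1192, 1171 and 1242 in Dicer1-ifKO. The third Dicer1-ifKO library lay inside the WT range, and the difference was -0.06 (SE 0.04, edgeR adjusted p 0.716). Hsp90b1, the endoplasmic reticulum form GRP94, was at 315, 302 and 287 CPM in WT and at 297.3, 297.4 and 305.3 in Dicer1-ifKO, inside the WT range. The ratio of Hsp90aa1 to Hsp90ab1 counts was 0.759, 0.758 and 0.711 in WT and 0.706, 0.704 and 0.635 in Dicer1-ifKO. These ratios, computed after the values of both genes were seen, did not overlap between the groups; the two-sided exact permutation p was 0.1, the smallest that 3 against 3 libraries can give.

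Among the HSP70 genes the constitutive cytosolic form was lower in every Dicer1-ifKO library and the inducible forms were not. Hspa8, which encodes HSC70, the constitutive HSP70 that also strips clathrin coats from vesicles (chr9:40800984-40805200), was at 1508, 1449 and 1407 CPM in WT and at 1350, 1355 and 1374 in Dicer1-ifKO. The difference was -0.10 on the log2 scale (SE 0.04, edgeR unadjusted p 0.0409, adjusted p 0.453). Hspa9, the mitochondrial HSP70 mortalin, was at 191, 205 and 201 CPM in WT and 186, 189 and 190 CPM in Dicer1-ifKO, where the groups were separated by 1 small gap. This is a log2 difference of -0.08 (SE 0.05, edgeR unadjusted p 0.0852, adjusted p 0.559).

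Hsph1, an HSP110 that exchanges the nucleotide of HSP70 (chr5:149614287-149636171, the minus-strand gene whose element is printed above), was at 309, 304 and 281 CPM in WT. In Dicer1-ifKO it was at 267, 272 and 277 CPM, below every WT library. The log2 fold change was -0.13 (SE 0.05, unadjusted p 0.0106, adjusted p 0.312 in edgeR). Its relatives Hspa4, at 232 ± 7.92 and 220.5 ± 5.09 CPM (SD, n = 3 each), and Hspa4l, at 166 ± 4.26 and 169 ± 6.4 CPM (SD, n = 3 each), overlapped between the genotypes.

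The stress-inducible HSP70 genes overlapped between the genotypes. Hspa1a was at 14.3, 13.2 and 13.4 CPM in WT and at 15.8, 12.3 and 15.7 in Dicer1-ifKO, and Hspa1b at 14.9, 14.3 and 13.4 and at 16.5, 12.7 and 17.0. Their log2 fold changes were 0.10 (SE 0.10) and 0.12 (SE 0.11), with adjusted p of 0.798 and 0.753 in edgeR. The second Dicer1-ifKO library was the lowest of all 6 for both. The genes are near-identical copies with nearly equal counts, so each value may hold reads of the other and the 2 are not independent. Dnajb1, the DnaJ partner of inducible HSP70, was at 22.6 ± 0.343 and 22.8 ± 2.96 CPM (WT and Dicer1-ifKO, SD, n = 3 each), with a log2 fold change of 0.02 (SE 0.09, 95% interval -0.15 to 0.19). Hspa5, the endoplasmic reticulum HSP70 called BiP, had a log2 fold change of 0.01 (SE 0.07, 95% interval -0.12 to 0.15). These 4 genes were named after their values were seen.

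The remaining HSP70 genes overlapped between the genotypes. They are Hspa2, Hspa12a, Hspa12b, Hspa13, Hspa14 and Hspa1l, with log2 fold changes from -0.15 (Hspa12b, at 5.33 to 6.64 CPM) to 0.03. Hspa1l shares 72.0% of its exon bases with the opposite-strand model Gm10501, and the strand setting of the counting is not given in the sources used here, so its reads are uncertain.

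The DnaJ genes of class A, which have the full set of domains of the bacterial protein, were split evenly. Dnaja1, a cytosolic partner of HSPA8 (chr4:40722922-40737149), was at 271, 282 and 269 CPM in WT and at 244, 249 and 245 in Dicer1-ifKO. The 3 Dicer1-ifKO values lay close together and below the lowest WT library, and the log2 fold change was -0.16 (SE 0.04, unadjusted p 0.00174, adjusted p 0.176 in edgeR). Smu1 on the opposite strand shares 10.8% of its exon bases. Dnaja2, the other abundant cytosolic member, was at 195, 185 and 178 CPM in WT and at 173, 174 and 174 CPM in Dicer1-ifKO, or -0.10 on the log2 scale (SE 0.05, edgeR unadjusted p 0.0412, adjusted p 0.454). Dnaja3, the mitochondrial form, was at 54.3 ± 1.46 and 53.4 ± 1.21 CPM (SD, n = 3 each). Dnaja4 had a log2 fold change of 0.06 (SE 0.06), with 52.6% of its exon bases shared with Wdr61 on the opposite strand.

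In class B only Dnajb6 was separated. Dnajb6, which holds back the aggregation of polyglutamine proteins (chr5:29735688-29786478), was at 147, 154 and 151 CPM in WT and at 137, 134 and 138 in Dicer1-ifKO. All 3 Dicer1-ifKO libraries lay below WT, by -0.15 on the log2 scale (SE 0.05, edgeR unadjusted p 0.00392, adjusted p 0.219). Dnajb4, second in class B per kilobase, was at 54.1 ± 3.4 CPM in WT and 54.2 ± 0.68 CPM in Dicer1-ifKO (SD, n = 3 each), with a 95% interval of the log2 fold change from -0.12 to 0.11. Dnajb14 and Dnajb5, the most highly counted of the others, differed by -0.03 and -0.01 on the log2 scale. The 11 tested class B genes had a median of -0.014, and Dnajb13 and Dnajb3, with the widest log2 fold changes (0.34 and -0.20), had no more than 24 counts in any library.

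Class C holds DnaJ proteins with specialised roles, and 17 of its 25 tested genes had negative values, with a median log2 fold change of -0.034. Dnajc27, a RAB-like GTPase with a J domain (chr12:4082574-4110612), was at 89.1, 95.9 and 88.6 CPM in WT and at 103, 104 and 103 in Dicer1-ifKO. It was the only class C gene higher in all 3 Dicer1-ifKO libraries, with a log2 fold change of 0.19 (SE 0.05, unadjusted p 0.00126, adjusted p 0.158 in edgeR). Without WT replicate 2, the highest WT library, the log2 fold change was 0.22 and the adjusted p 0.0478 in edgeR. That was the lowest adjusted p of the alternative analyses, which ran up to 0.461. With the offset for transcript length described below, Dnajc27 had a log2 fold change of 0.16 and an adjusted p of 0.234 in edgeR. No other gene shares its exons.

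Dnajc8, a DnaJ protein bound to the spliceosome, was at 76.2, 78.0 and 80.7 CPM in WT and at 73.7, 69.4 and 69.9 in Dicer1-ifKO, or -0.14 on the log2 scale (SE 0.05, edgeR unadjusted p 0.0122, adjusted p 0.322). Dnajc28 was at 10.3, 9.44 and 10.6 CPM in WT and at 8.895, 8.83 and 8.20 in Dicer1-ifKO, from 121 to 173 counts a library. The log2 fold change was -0.23 (SE 0.11, unadjusted p 0.0481, adjusted p 0.472 in edgeR).

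The DnaJ genes of the synapse overlapped between the genotypes. Dnajc5, the cysteine string protein of synaptic vesicles, was at 260 ± 6.32 and 265 ± 11.8 CPM (WT and Dicer1-ifKO, SD, n = 3 each). Dnajc6, the neuronal auxilin that recruits HSC70 to clathrin-coated vesicles, was at 274, 279 and 260 CPM in WT and at 283, 275 and 294 in Dicer1-ifKO, or 0.07 on the log2 scale (SE 0.05, edgeR adjusted p 0.658). Dnajc7, which binds both HSP70 and HSP90 and was the most abundant class C gene per kilobase, was at 162 ± 10.6 and 160 ± 6.94 CPM (SD, n = 3 each). In Dnajc7 WT replicate 1 was the lowest library of all 6, at 150.2 CPM.

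The other 19 tested class C genes had log2 fold changes from -0.13 (Dnajc15) to 0.14 (Dnajc25), and their values overlapped between the genotypes. Exons are shared with an opposite-strand gene to 37.6% in Dnajc30 (Bud23) and 26.3% in Dnajc14 (Ormdl2), whose reads are therefore uncertain.

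The small heat shock protein genes with an Hspb symbol were the least abundant family, and Hspb7 had the widest difference of the 12 separated members. Cryab, without that symbol, is given below. Hspb7, best known from heart muscle (chr4:141420779-141425311), had 39, 49 and 53 counts in WT and 69, 77 and 101 in Dicer1-ifKO, or 3.32, 3.08 and 3.26 CPM and 4.48, 4.27 and 4.93 CPM. The lowest Dicer1-ifKO library, at 4.27 CPM, lay above the highest WT library, at 3.32. The log2 fold change was 0.51 (SE 0.16, 95% interval 0.19 to 0.82, unadjusted p 0.00478, adjusted p 0.233 in edgeR). It stayed between 0.44 and 0.56 over the alternative analyses.

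Hspb8, which acts with BAG3 in the disposal of misfolded proteins, was at 8.51, 5.35 and 5.84 CPM in WT and at 4.935, 5.88 and 5.52 in Dicer1-ifKO. The log2 difference of -0.24 (SE 0.16) rested on WT replicate 1 and was -0.03 without that library. Hspb1, which encodes HSP27, was at 3.32, 1.83 and 2.58 CPM in WT and 2.73, 1.89 and 3.08 CPM in Dicer1-ifKO. Its log2 fold change of 0.03 (SE 0.23) turned to -0.17 without WT replicate 2 and to 0.22 without WT replicate 1, with 29 to 63 counts a library. Hspb6 had -0.33 (SE 0.22), with 30 to 41 counts a library.

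Both genes of the mitochondrial chaperonin had negative values, and Hspd1 was separated by the narrowest margin. Hspd1, which encodes HSP60 (chr1:55077835-55088024), was at 152, 166 and 146.3 CPM in WT and at 146.0, 133 and 143 in Dicer1-ifKO. The log2 difference was -0.14 (SE 0.05, edgeR unadjusted p 0.0163, adjusted p 0.341), and -0.09 without WT replicate 2, its highest library. Hspe1, which encodes HSP10, was at 41.2, 36.5 and 38.25 CPM in WT and at 35.3, 34.8 and 37.2 in Dicer1-ifKO. The third Dicer1-ifKO library lay inside the WT range. The log2 fold change of Hspe1 was -0.11 (SE 0.07, adjusted p 0.627 in edgeR) and -0.06 without WT replicate 1. These neighbours share 14.5% of the exon bases of Hspe1 on opposite strands.

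The 3 genes with an Hspb prefix that are not small heat shock proteins overlapped. Hspb11, the intraflagellar transport protein IFT25, had -0.08 (SE 0.09) on the log2 scale. Hspbp1, a nucleotide exchange factor of HSP70, had -0.11 (SE 0.07), and -0.05 without Dicer1-ifKO replicate 2. Hspbap1, which binds HSPB1, had -0.07 (SE 0.14).

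A further 8 members were not tested because their counts were too low: Dnajb7, Dnajb8, Dnajc22, Dnajc5b, Dnajc5g, Hspb2, Hspb3 and Hspb9. They had 0 to 10 counts in any library, and Dnajc5g had 0 in all 6. A count of 3, the limit that a count of 0 allows, corresponds to 0.146 to 0.255 CPM in these libraries (counting error only).

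Levels between genes were compared per kilobase of the representative transcript. Hspa8 was the most abundant member, at 587.8 CPM per kilobase over all libraries, before Hsp90ab1 at 486.4 and Hsp90aa1 at 266.2. Hsp90b1 followed at 106.4 and Hsph1 at 90.8. The library ranges of these 5 did not overlap. Below these lay Dnajc7 at 69.1, Hspa9 at 63.5, Dnaja2 at 63.3, Hspd1 at 60.9 and Hspa5 at 56.8, where the library range of each overlapped that of the next. Summed over families, the HSP70 and HSPH genes came to 960.6 to 1021 CPM per kilobase in WT and 926.7 to 960.0 in Dicer1-ifKO. For the HSP90 genes the sums were 886 ± 27.5 and 832 ± 10.2, for class C 530 ± 9.19 and 519 ± 5.13, and for class A 156 ± 4.6 and 147 ± 0.452 (SD, n = 3 each). Sums did not overlap between the groups for class A (151.3 to 160.3 in WT and 146.9 to 147.7 in Dicer1-ifKO), HSP90 (854.2 to 905.7 and 821.3 to 841.3) or the chaperonin pair (109.8 to 116.0 and 99.86 to 107.0). For HSP70 with HSPH and for the 3 genes with only the prefix they were barely apart, the latter at 50.39 to 54.63 and 48.0 to 50.03. A single gene weighs heavily in several sums. Hspa8 made up 60.9% of HSP70 with HSPH, Hsp90ab1 56.6% of HSP90 and Hspd1 55.9% of the chaperonin pair. Of the 14 HSP70 and HSPH genes 7 had positive log2 fold changes, so the sums do not describe each gene of a family. The 7 small heat shock protein genes with an Hspb symbol together reached 9.98 ± 1.84 and 9.31 ± 0.725 CPM per kilobase (SD, n = 3 each). WT replicate 1 was the highest library, at 11.9.

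**Figure D3:**
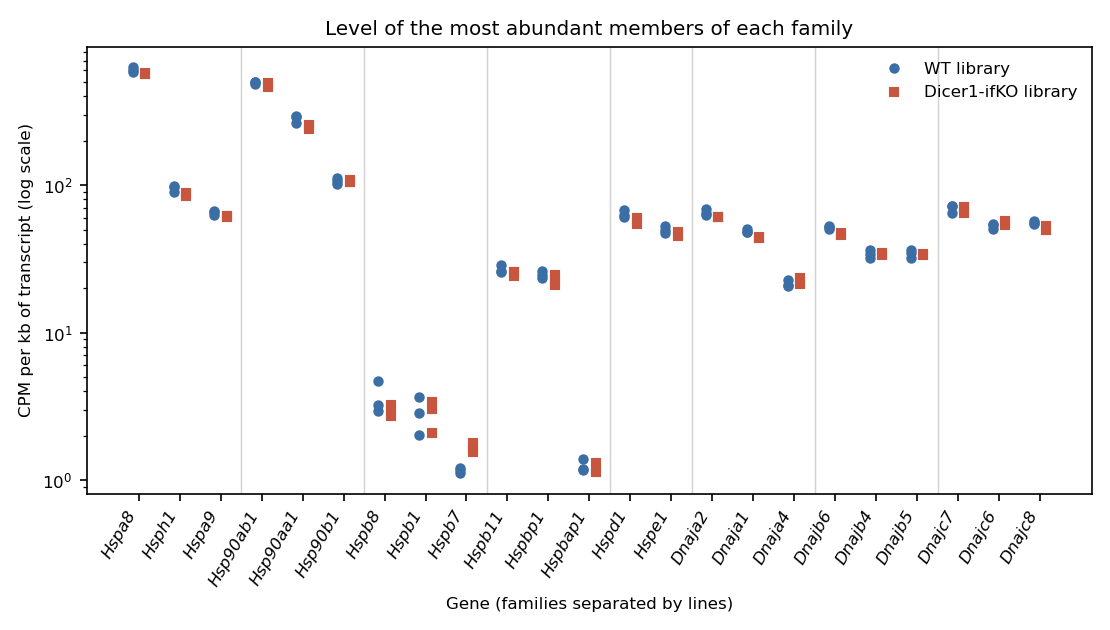
Level of the most abundant members in CPM per kilobase of transcript, on a log axis, with 1 point per library and both genotypes. Hspa8, Hsp90ab1 and Hsp90aa1 lie above the others in every library.

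Members with the strict heat shock element stood lower than those without. The 4 genes, Dnajb6, Hspd1, Hspe1 and Hsph1, had a median log2 fold change of -0.135, against -0.017 for those of the 55 tested members with a promoter window that lacked it. Over all genes the median was 0.005 in 71 tested genes with the element and -0.003 in those without. With the 2-unit element the medians were -0.056 in 14 members and -0.028 in those without. The 4 members with the strict element were described without a test, and Hspd1 and Hspe1 share a single stretch of it. Dnajb6, Hspd1 and Hsph1 are also among the members already described as lower in every Dicer1-ifKO library, so this median is not a separate observation. Dnaja1, with 1 short element, was lower in every Dicer1-ifKO library, Dnajc27, with 1, was higher, and Hspa1a and Hspa1b overlapped.

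Transcript length moved with the log2 fold change in these libraries. Across 16154 genes, which are not independent replicates, Spearman's rank correlation between length and log2 fold change was 0.205, and across the 66 tested members it was 0.275. The strongest relation in a single library was that of WT replicate 1, the shallowest (rank correlation -0.272 between length and its deviation from the mean). Members shorter than 3000 bases had a median of -0.056 (39 members, all genes -0.028), and longer ones -0.012 (27 members, all genes 0.022). In both classes the members lay below all genes of that class. Of the longer members 5 of 27 (18.5%) were lower in every Dicer1-ifKO library, against 5.43% of all longer genes, and of the shorter ones 5 of 39 (12.8%), against 10.4%. With a per-library offset for length the median of the members was -0.044, and Dnaja1, a long transcript of 5622 bases, had -0.20 with an adjusted p of 0.051 in edgeR.

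**Figure D4:**
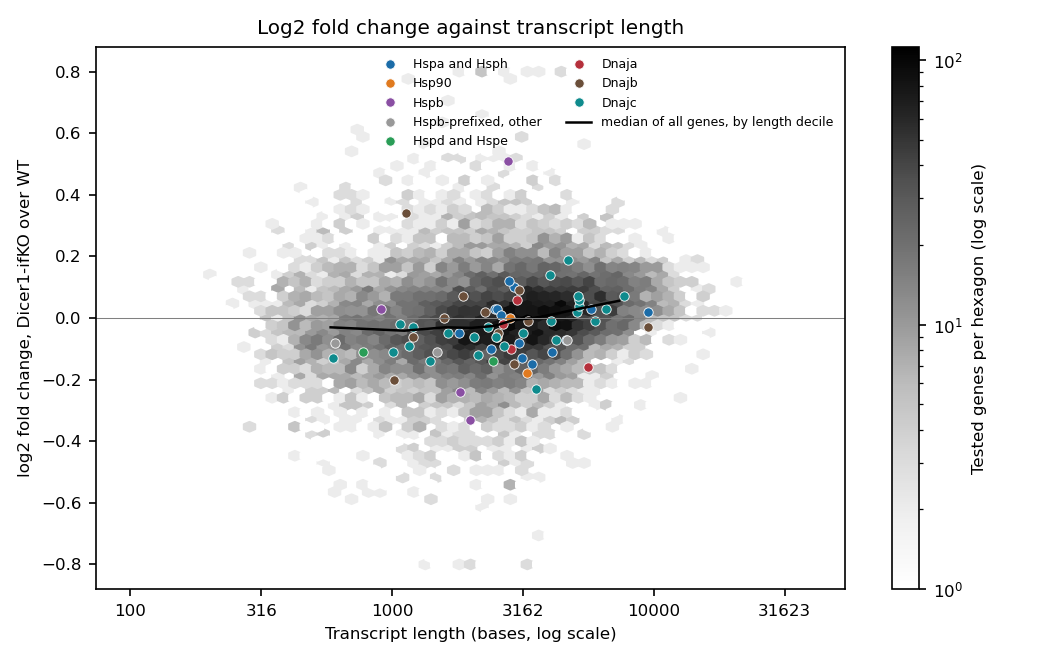
Log2 fold change against representative transcript length (log axis) for all tested genes in grey and the tested members in colour; values beyond the vertical axis are drawn at its edge. Hsp90aa1 and Dnaja1 lie below genes of their length.

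Matches to microRNA seeds were counted in the 3′ UTRs, since Dicer1 makes mature microRNAs. Of 11 microRNAs known from brain, 4 with seed matches in the 2 higher members or in Hsp90aa1 are printed here with bases 2 to 8, the seed, in capitals (RefSeq, GRCm38.p6). Their seeds all differ.
miR-29a-3p: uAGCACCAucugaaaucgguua
miR-9-5p: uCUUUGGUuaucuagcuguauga
miR-132-3p: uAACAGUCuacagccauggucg
miR-128-3p: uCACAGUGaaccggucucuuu
Dnajc27 holds 3 matches to miR-29a-3p in its 3′ UTR of 3672 bases, and 1 each to miR-128-3p and miR-30a-5p. Hspb7 holds 1 match to miR-132-3p in a 3′ UTR of 1253 bases. Lower members held matches too. Dnajc28 holds 4 to miR-138-5p, Dnaja1 holds 4 (2 of them to miR-9-5p), Dnaja2 holds 4, Dnajb6 holds 3, and Hsp90aa1 (miR-9-5p) and Hspa9 (miR-137-3p) hold 1 each. None was found in Hspa8, Hsph1, Hspd1 or Dnajc8. The sites shown are those of the 2 higher members and of Hsp90aa1, the member with the lowest p. The sites lie on the strand of each gene in GRCm38, with the match in capitals: Dnajc27 at chr12:4108690-4108714, chr12:4110201-4110225 and chr12:4110413-4110437 (plus strand), Hspb7 at chr4:141424472-141424496 (plus strand) and Hsp90aa1 at chr12:110690683-110690707 (minus strand).
Dnajc27, first miR-29a-3p site: gaggtgtgtgTGGTGCTgtcagcct
Dnajc27, second miR-29a-3p site: cttctcatccTGGTGCTgagcacag
Dnajc27, last miR-29a-3p site: ctccctgcacTGGTGCTgaccgctc
Hspb7, miR-132-3p site: agatagccatGACTGTTaccttcct
Hsp90aa1, miR-9-5p site: aagagcactaACCAAAGccgggcgg

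Members that matched more of the 11 seeds, each seed counted once, had a less negative median log2 fold change, and their 3′ UTRs were longer. The median was -0.09 in 21 members with no match to any of the 11 seeds, -0.05 in 25 with 1 or 2 seeds matched, and 0.02 in 16 with 3 or more. Over all genes with a 3′ UTR of at least 50 bases (13328) the medians were -0.02, 0.00 and 0.02. The median 3′ UTR length of the members was 281, 1103 and 3306 bases in the 3 classes, and the part of UTR length in these medians was not tested. By single seeds, members with a match had a higher median than members without for 9 of the 11, such as miR-29a-3p (8 members, 0.02 against -0.05). It was lower for miR-26a-5p (4 members, -0.06 against -0.03) and miR-101a-3p (2 members, -0.07 against -0.04). Over all genes the median with a match was the higher for each of the 11 seeds (miR-29a-3p 0.02 against -0.01). Members such as Hspa4l recur among the seeds, so the 9 are not separate observations.

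The helpers of HSP70 and HSP90 outside these families also had mostly negative values. Values were negative in 30 of 33 tested cochaperones (90.9%, against 51.0% of all genes), with a median of -0.064. By edgeR 0 passed the threshold and 3 had an unadjusted p below 0.05, a share of 9.09% against 10.4% of all genes. In 3 (9.09%, against 8.08% of all genes) every Dicer1-ifKO library was below every WT library. Ptges3, the HSP90 cochaperone p23, had -0.11 (SE 0.05, adjusted p 0.451 in edgeR) and was lower in every Dicer1-ifKO library. Bag6, which guards membrane proteins in the cytosol, had 0.12 (SE 0.05, adjusted p 0.373 in edgeR) and was higher in each. Of 15 tested genes of TRiC and prefoldin, the cytosolic chaperonin and its feeder, 13 were negative, with a median of -0.052, and 6 were lower in every Dicer1-ifKO library (40.0%, against 8.08% of all genes). Among them were Pdcl at -0.28 (SE 0.09) and Cct5, a TRiC subunit, at -0.13 (SE 0.05), with adjusted p of 0.224 and 0.318 in edgeR; 0 genes of the list passed and 2 of the 15 had an unadjusted p below 0.05, where 10.4% of all genes did.

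Listed genes of the endoplasmic reticulum and of mitochondria outside these families had about as many positive as negative values. That was so for all genes too (51.0% negative). The lists are not limited to chaperones, and they leave out the members above. Of those members, the mitochondrial Hspd1, Hspe1 and Hspa9 had log2 fold changes of -0.14, -0.11 and -0.08. The mitochondrial Dnaja3 and Dnajc19 had -0.02 and -0.06. The endoplasmic reticulum members Hspa5 and Hsp90b1 had 0.01 and 0.00. Not every member of either compartment is listed here, and a difference between compartments was not tested. Of 20 endoplasmic reticulum genes 10 were negative, with a median of -0.005, and of 15 mitochondrial chaperone and protease genes 7 were negative, with a median of 0.001. In edgeR 0 genes of either list passed, with 1 and 0 at an unadjusted p below 0.05 (10.4% of all genes). Atf6, a sensor of unfolded proteins in the endoplasmic reticulum, had 0.12 (SE 0.05), and Sdf2l1 had 0.37 (SE 0.18) at 3.26 to 5.26 CPM. Of the 6 heat shock factor genes and their binding partners 3 were negative and 0 had an unadjusted p below 0.05 in edgeR; Hsf2 had -0.10 (SE 0.07) and Hsbp1 -0.07 (SE 0.05). Cryab, a small heat shock protein gene that the choice by symbol leaves out, had -0.19 (SE 0.09). WT replicate 1 was its highest library, at 54.2 CPM against 38.0 to 44.0 in the others. These lists were chosen with earlier results of these data known.

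No single transcript of a member passed the test either. Of 286 member transcripts 272 were tested together with all others (60500 transcripts, 0.0777% of them called), and by edgeR 0 member transcripts were below an adjusted p of 0.05. At an unadjusted p below 0.05 were 43 as lower (15.8%, against 4.43% of all transcripts) and 9 as higher (3.31%, against 5.01%). Transcripts of 1 gene share reads. Among transcripts with a mean count of at least 50, the 8 of Hsp90aa1 had log2 fold changes from -0.25 to -0.03 and the 7 of Dnajb6 from -0.27 to -0.10. The 6 of Hsph1 ran from -0.15 to -0.10 and the 3 of Hspd1 from -0.15 to -0.13. Both transcripts of Dnajc27 were positive, at 0.17 and 0.21, while the 10 of Dnaja1 spanned -0.17 to 0.14. Some minor transcripts differed more than their gene: 3 of Dnajc6 had 0.27 to 0.35, where the gene had 0.07, and 3 of Dnajc19, a subunit of the mitochondrial import motor, had -0.32 to -0.30, where the gene had -0.06. Both genes were singled out after their transcripts were seen, and edgeR gave these transcripts adjusted p of 0.262 to 0.31.

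**Figure D5:**
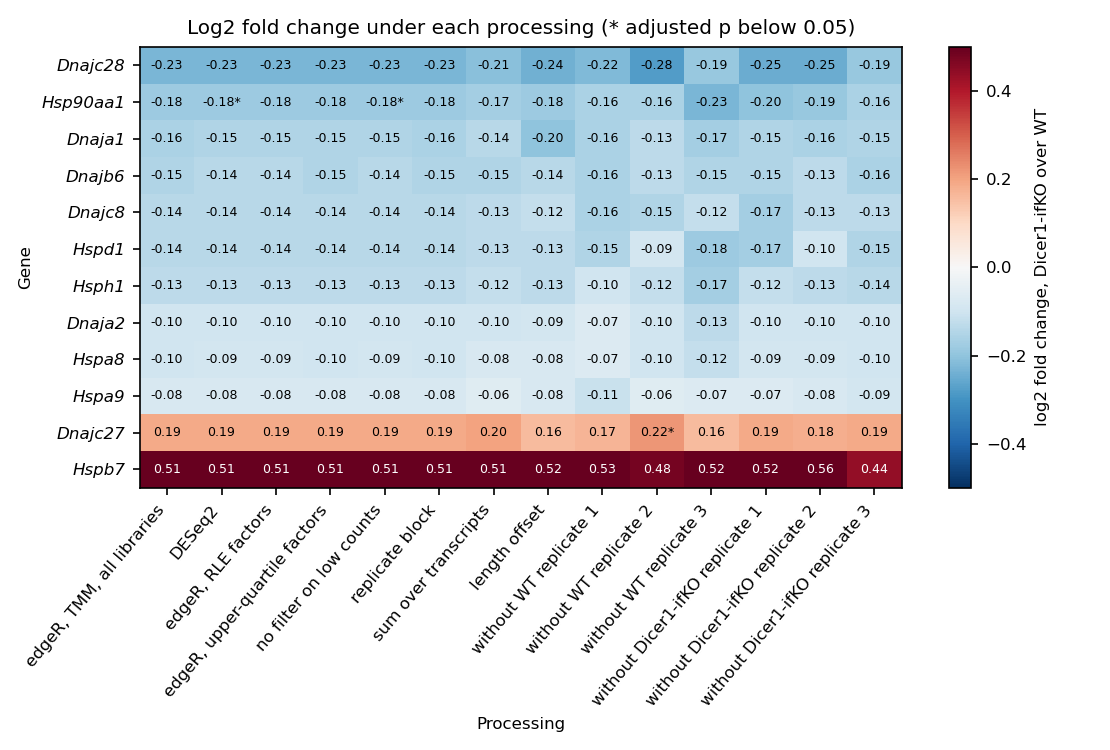
Log2 fold change of the separated members (rows) under each way of processing the counts (columns), written in each cell. The signs hold in every column: Hspb7 and Dnajc27 are positive throughout, and the other 10 members negative.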

How the data were processed

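Whole-read counts per transcript were deposited by the authors for each of 6 libraries, per the file headers; a second deposited column, the count divided by 1 factor per library (unit signal), was not tested. The submitters' processing notes name TopHat2 2.0.6, Bowtie2 2.0.5, CASAVA 1.8.2, DESeq2, SAMtools 0.1.18 and the builds mm10 and GRCm38. How reads were assigned to transcripts, with which annotation and strand setting, is not given in the sources used here. Reads in exons shared by transcripts were counted for each (2 transcripts agreed within 1% in 3664 of the 8458 genes that have 2 or more with a mean count of 50), so each symbol was represented by its most counted transcript.

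Genotypes were compared with edgeR 4.0.16 (R 4.3.3) by its quasi-likelihood test (TMM factors, filterByExpr with minimum count 10, prior count 0.125, genotype as the only term), adjusted by Benjamini-Hochberg over all 17405 genes, with a common biological coefficient of variation of 0.0464. The replicates are stated to be biological, from separate pools of mice. CPM use the TMM-scaled library sizes. SE is the log2 fold change divided by the root of F. The fit was tested on simulated data. Alternatives were DESeq2 1.42.0, other scaling factors, no filter, sums over transcripts, a replicate block, a loess length offset (span 0.4) and leaving out each library. Lengths came from GENCODE M21: 49 members had identical coordinates, and 25 took the nearest transcript within 1000 bases at each end. 3′ UTRs came from the same transcripts.

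Members and gene lists were chosen with earlier results of these data known. Described in full are members with an unadjusted p below 0.05, members whose groups did not overlap at a log2 CPM averaging 1 or more, and the top 2 of each family per kilobase; others are named by range.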

Additional observations from a re-analysis of the deposited data

How the results depend on the processing

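The number of members with an adjusted p below 0.05 was 0 in the analysis reported and 1 with DESeq2 (Hsp90aa1), 1 with no filter on low counts (Hsp90aa1) and 0 to 1 when 1 library was left out (Dnajc27 without WT replicate 2). Over all genes the number was 28, and became 68 with DESeq2, 151 with no filter, 7 with counts summed over transcripts and 6 to 105 when 1 library was left out. The cause was not tested. The median log2 fold change of the members lay between -0.062 and -0.032 in all 13 alternatives.

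With the replicate number as a block, 0 members and 22 genes were called, the median of the members was -0.052, and the lowest adjusted p of a member was 0.165 in edgeR. Deviations of libraries with the same number correlated at -0.0623, 0.0579 and -0.0996, the mice differ, and the numbers do not pair the samples.

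Of 273 values of the 21 members described in full, 266 kept their direction and their side of the threshold, 3 passed it (above) and 4 turned: leaving out 1 library at a time moved Hspb1 from -0.17 to 0.22 (also -0.01 without the first Dicer1-ifKO library and -0.14 without the last) and Dnajc7 from -0.08 to 0.01. Dnajb4, whose log2 fold change rounds to 0.00, was not counted as turning. DESeq2 gave no adjusted p for Dnajc28, Hspb1, Hspb7, Hspb8, Hspb11, Hspbp1 and Hspe1. Their DESeq2 values are among the 266 by direction alone. Depth limits the scarce members: Hspb1 and Hspb6 had SEs of 0.23 and 0.22, against 0.04 to 0.05 for Hspa8 and Hsp90aa1.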
